A study of Mus musculus with 30 samples.

Results

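The libraries compared here are 6 of the 30 in the series: 3 of neural retina from mice given tamsulosin before bright light (TAM) and 3 of neural retina from mice kept out of bright light (no light). They are all the libraries of that experiment with these group labels. All mice were Abca4-/-Rdh8-/- on the C57BL/6J strain, male and female, aged 4 to 6 weeks and housed in 12 h light at no more than 10 lux and 12 h dark. TAM mice received tamsulosin by intraperitoneal injection 30 min before white light of 10000 lux for 30 min, and their retinas were taken 24 h after the light. No-light mice received the vehicle, DMSO, and no bright light. The labels used here state no tamsulosin dose, and no group received tamsulosin without bright light, so effects of the drug itself and of light that the drug did not prevent cannot be told apart. The 3 light libraries, from mice given DMSO before the same exposure, serve as a scale. These 3 groups belong to the single-drug experiment, which holds 18 libraries in 6 groups. A separate experiment of the series tested drug mixtures and has its own light and no-light libraries.

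Abca4 moves retinaldehyde out of photoreceptor disc membranes and Rdh8 reduces it to retinol, so a retina without both clears all-trans-retinal slowly after bright light and its photoreceptors are prone to die. Tamsulosin blocks alpha-1 adrenergic receptors, which act through the G protein Gq and phospholipase C. When photoreceptors are damaged, Müller glia, the supporting glia of the retina, raise the filament protein Gfap and respond to cytokines that share the receptor subunit gp130 and the transcription factor Stat3. The comparison of TAM with no light asks how much of the transcript response to light is left 24 h after an exposure that followed tamsulosin.

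One TAM library stood apart from the others, so every result is given by library. The position of each library was measured on genes that light had changed at least 2-fold in the mixture experiment, whose libraries are not among the 18 used here. Of these, 554 raised and 101 lowered genes were measured in the single-drug experiment. With the no-light mean set to 0% and the light mean to 100%, TAM replicates 1, 2 and 3 lay at 4.20%, 64.0% and 1.36%. The light libraries lay between 91.7% and 106%, and the no-light libraries between -3.85% and 6.45%. By this measure replicates 1 and 3 were inside the no-light range, whose upper end was no-light replicate 1. The other no-light libraries lay at -2.61% and -3.85%. Replicate 2 lay above that range and above the 9 libraries of the other drugs, which spanned 7.33% to 44.0%. On all genes called for light in the mixture experiment, with no fold threshold, TAM lay at 8.29%, 61.1% and -1.31%. No-light libraries then lay between -5.89% and 6.95%, so TAM replicate 1 was above them. The labels do not say whether the libraries of a group are separate animals, so p-values measure the spread between libraries, which may be technical.

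**Figure D1:**
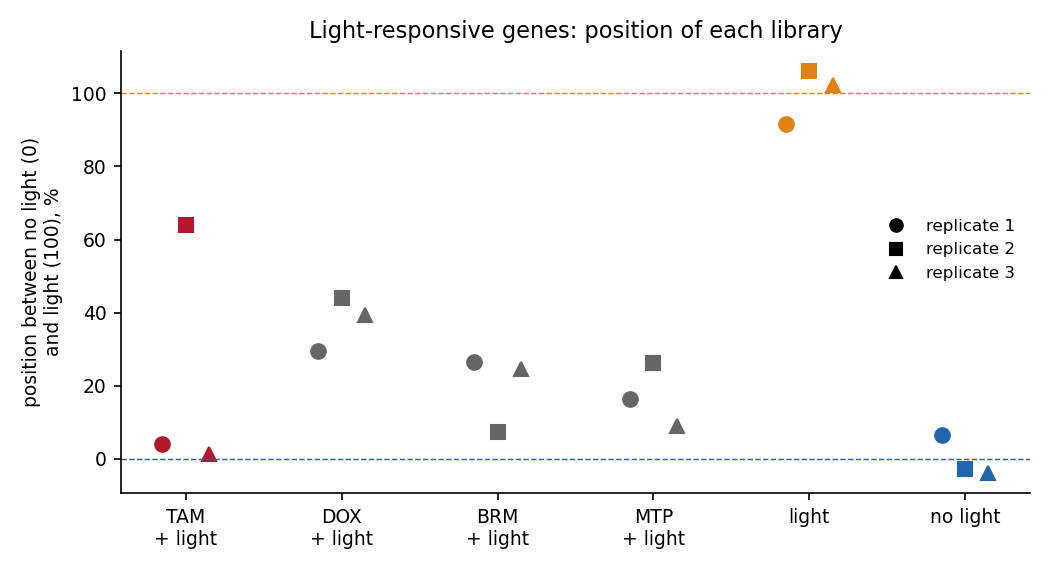
Position of each of the 18 libraries of the single-drug experiment on light-responsive genes (vertical axis, %, 0 = mean of the no-light libraries, 100 = mean of the light libraries), by group; each point is 1 library and its shape gives the replicate number. DOX, BRM and MTP are doxazosin, bromocriptine and metoprolol, each given before light. TAM replicate 2 sits at 64.0%, and TAM replicates 1 and 3 sit at 4.20% and 1.36%.

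TAM libraries held 12.0 to 18.6 M counts and no-light libraries 20.4 to 22.1 M, with replicate 1 of TAM the shallowest of the 18. Mitochondrially encoded transcripts took 6.90% to 7.23% of counts in TAM and 6.62% to 7.46% in no light. Tissue other than retina differed between libraries: a score over 6 lens-fibre genes (mean log2 CPM, counts scaled to the library total) was 6.57, 2.13 and 3.06 in TAM and 6.59, 2.62 and 2.62 in no light, so replicate 1 of each group carried lens transcripts. All 20 lens genes listed were measured, and together they reached 27130, 3193 and 4215 CPM in TAM against 25012, 4144 and 3894 CPM in no light. No-light replicate 1 also held Pmel, a pigment-cell gene, at 244 CPM, against 17.2 and 6.74 CPM in the other no-light libraries and 12.2 to 18.8 CPM in TAM. The 3 light libraries, which set 100% on the scale above, also held lens transcripts, with scores of 5.37 to 5.51 and summed levels of 12114 to 15075 CPM. With the lens score as a covariate, TAM against no light again had 0 genes called. It also had 0 with only libraries of a lens score under 4, which kept replicates 2 and 3 of each group. That fit holds few libraries, among them the divergent TAM replicate 2, so its 0 calls do not show what lens tissue contributes. The part of this tissue in the positions and in single genes was not tested. The deposited counts, given per transcript, were summed per gene here, so the levels of Abca4 (668, 523 and 794 CPM in TAM, 693, 774 and 821 CPM in no light) and Rdh8 (32.3, 32.8 and 42.2 CPM in TAM, 40.1, 34.6 and 32.7 CPM in no light) do not check the deletions.

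Taken as a group, TAM retinas did not differ from no-light retinas in any gene at an adjusted p under 0.05. edgeR's quasi-likelihood test with Benjamini-Hochberg adjustment called 0 of 16249 genes (0%), with 1327 at an unadjusted p under 0.05, of which 631 were higher and 696 lower. limma voom also called 0 genes and DESeq2 called 7. Gfap, the gliosis filament, shows the spread behind this result: it had 25.0, 258 and 39.0 CPM in TAM, against 32.2, 19.1 and 21.1 CPM in no light, a log2 difference of 2.16 ± 0.61 (SE, adjusted p = 0.586, edgeR). Without TAM replicate 2 the difference was 0.41 ± 0.28 (adjusted p = 0.870, edgeR), and only 1 of 16607 genes (0.00602%) was called, Tmem254c, a member of a near-identical gene family whose counts are uncertain. Leaving out TAM replicate 1 gave 1 call, the predicted gene Gm9008, and leaving out TAM replicate 3 gave 0.

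Each TAM library was then set alone against the 3 no-light libraries, in a fit that assumes the lone library varies as the other groups do, so that a call describes that library and not the treatment. Replicate 1 had 1 gene called of 17186 (0.00582%), Mvk, mevalonate kinase of the cholesterol pathway, which was lower. Replicate 3 had 2 of 17140 (0.0117%), the predicted genes Gm10443 and Gm15459, both lower and both uncertain as possible copies of other genes. Replicate 2 had 213 genes called higher and 39 called lower of 17146 (1.24% and 0.227%). Fits added after the data were seen called 288 genes in replicate 2 by limma voom, 658 by DESeq2 (415 higher, 243 lower), and 186 to 263 by edgeR when any 1 no-light library was left out. In replicate 1 DESeq2 called 116 genes, 108 of them lower, and limma voom 0. Of the 213 genes higher in replicate 2, 202 (94.8%) were also called higher by light in the mixture experiment, where 1241 of 16007 genes were (7.75%). They made up 16.3% of those 1241 genes. Of the 39 lower genes, 21 (53.8%) were called lower there, against 876 of all genes (5.47%), and no gene called in replicate 2 went against the light response of the mixture experiment.

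Müller glial activation and acute-phase genes differed widely between the TAM libraries. The median over the 22 genes of this list, as log2 CPM minus the no-light mean, was 0.45, 2.65 and 0.00 in TAM replicates 1, 2 and 3, while the light libraries lay at 3.33 to 3.62 and the no-light libraries at -0.37 to 0.82. The same median over all genes was 0.01, -0.02 and 0.01 in TAM. No-light replicate 1 had the 0.82 of this list, and TAM replicate 1 the 0.45. Among the TAM and no-light libraries these are the 2 with lens transcripts, which the light libraries also carry, and members such as Vim (483, 283 and 86.2 CPM in TAM, 313, 71.5 and 71.2 CPM in no light) were high in both. In replicate 2 alone, 12 of the 22 genes were called higher and 0 lower, which is 54.5% of the list against 1.24% of all genes. Over all TAM libraries 15 had an unadjusted p under 0.05 and 0 passed the adjusted threshold, and the 2 members higher in every TAM library than in every no-light library (Lcn2 and C3, 9.09% of the list) compare with 4.66% of all genes.

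In Gfap the 258 CPM of replicate 2 compares with 264 to 301 CPM in light libraries. Cebpd, a transcription factor of the acute phase, had 2.03, 25.9 and 1.38 CPM in TAM, against 2.47, 1.12 and 0.685 CPM in no light. Its log2 difference in replicate 2 alone was 4.18 ± 0.59 (adjusted p = 0.0021, edgeR), and the light libraries had 33.7 to 38.2 CPM. Prss56, a secreted serine protease that Müller glia of the eye express, had 0.931, 33.8 and 1.63 CPM in TAM, against 0.805, 2.18 and 2.42 CPM in no light. That was called in replicate 2 alone (log2 difference 4.22 ± 0.65, adjusted p = 0.0037, edgeR), although light libraries stood far higher, at 133 to 189 CPM. Replicates 1 and 3 lay within the no-light range for Prss56. Serpina3n, an acute-phase protease inhibitor of a multigene family, had 5.84, 144 and 3.89 CPM in TAM and 23.0, 2.09 and 2.37 CPM in no light, and missed the threshold in replicate 2 alone (log2 difference 3.98 ± 0.97, adjusted p = 0.063, edgeR). Edn2, endothelin 2, which photoreceptors release when injured, had 2.29, 18.2 and 2.32 CPM in TAM and 4.83, 0.883 and 1.16 CPM in no light. Lcn2, lipocalin 2, had 2.71, 10.4 and 2.57 CPM in TAM and 2.42, 1.35 and 1.48 CPM in no light. Every TAM library exceeded every no-light library in Lcn2, but replicates 1 and 3 by a small margin.

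**Figure D2:**
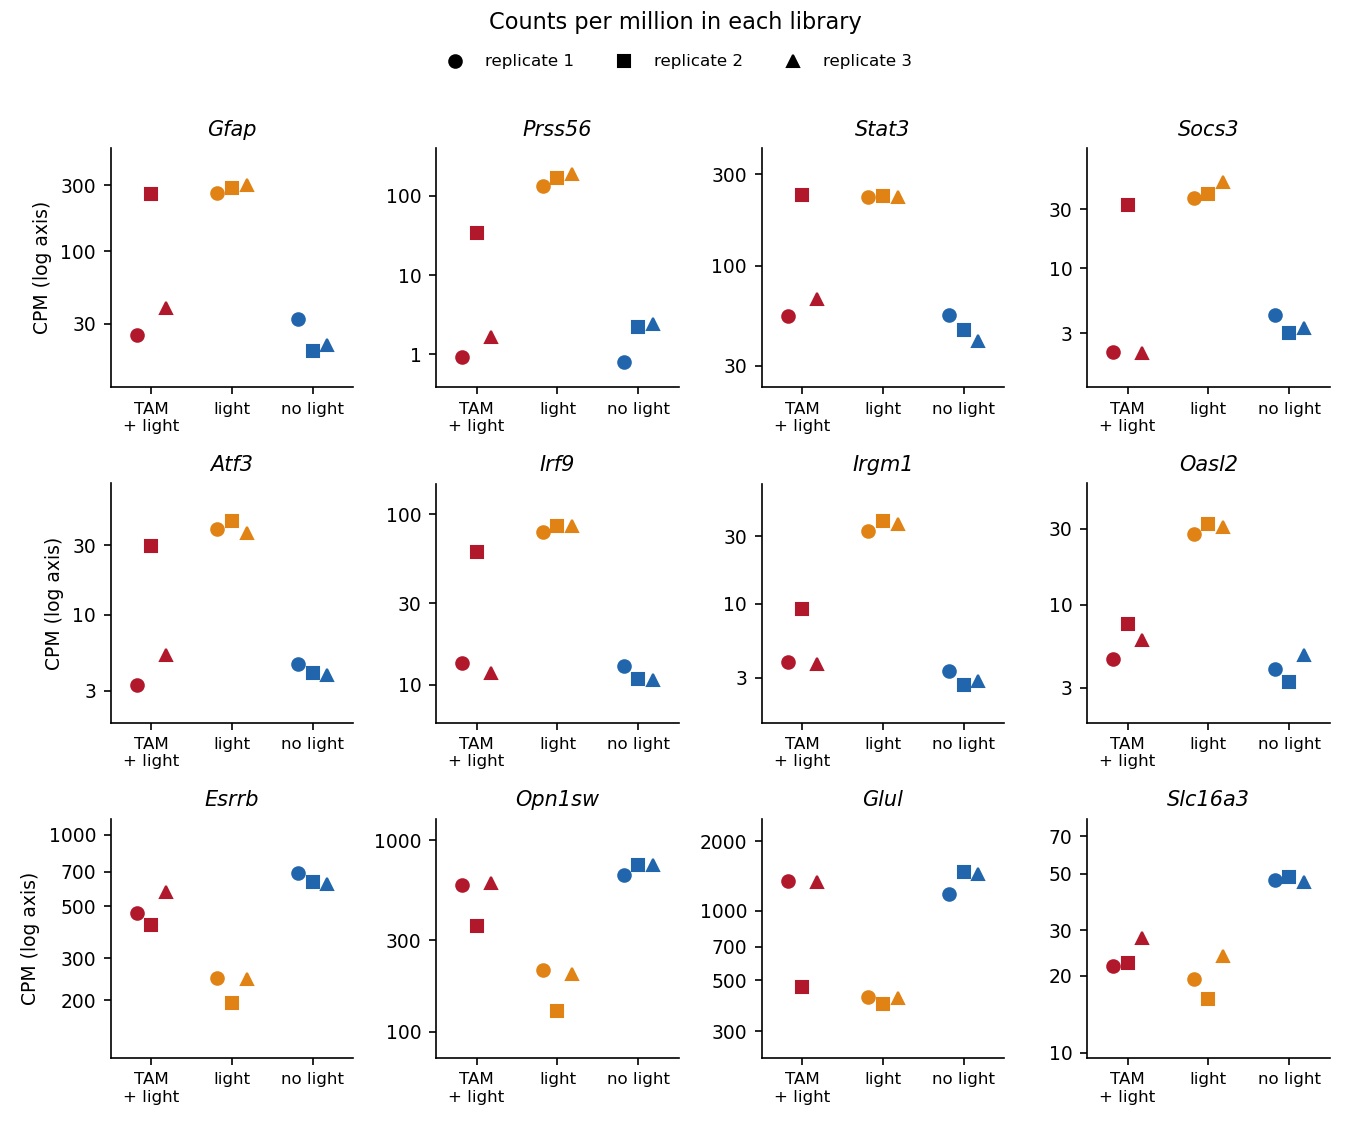
CPM (vertical axis, logarithmic) of 12 genes in TAM, light and no-light libraries; each point is 1 library and its shape gives the replicate number. In Gfap, Stat3, Socs3 and Glul TAM replicate 2 lies beside the light libraries and TAM replicates 1 and 3 lie beside the no-light libraries, while in Slc16a3 the 3 TAM libraries lie together at 21.8 to 28.0 CPM, below the no-light libraries at 46.5 to 48.4 CPM.

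Genes of gp130 cytokines and JAK-STAT signalling, not all of them particular to gp130, followed the same split. Their list (21 genes measured) had a median of -0.07, 1.37 and 0.01 in TAM replicates 1, 2 and 3, against 1.67 to 1.88 in light and -0.13 to 0.12 in no light. In replicate 2 alone 8 of 21 were called higher (38.1%, against 1.24% of all genes). The ligand Lif had 0.423, 5.55 and 0.251 CPM in TAM and 0.403, 0.325 and 0.158 CPM in no light. Il6st, which encodes gp130 itself, had 134, 340 and 139 CPM in TAM and 137, 118 and 124 CPM in no light. Osmr, the oncostatin M receptor that pairs with gp130, had 8.72, 74.1 and 12.5 CPM in TAM and 11.3, 6.64 and 6.16 CPM in no light. Stat3, the transcription factor below the receptors, had 54.4, 235 and 66.9 CPM in TAM and 55.3, 45.9 and 40.4 CPM in no light. For Il6st and Stat3 the value of replicate 2 reached the light libraries, which had 329 to 342 CPM and 227 to 229 CPM. Socs3, the feedback inhibitor of this pathway, had 2.12, 32.7 and 2.07 CPM in TAM, against 4.23, 3.02 and 3.32 CPM in no light. Socs3 in replicates 1 and 3 was therefore below every no-light library, while replicate 2 was called higher (log2 difference 3.21 ± 0.44, adjusted p = 0.0017, edgeR). Tyk2, a kinase of the receptors, was lower in every TAM library, at 8.04, 8.48 and 8.91 CPM against 11.5, 10.6 and 10.4 CPM in no light (log2 difference -0.35 ± 0.12, adjusted p = 0.586, edgeR). That held for 1 of the 21 genes (4.76%), against 6.49% of all genes.

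Interferon response and MHC class I antigen presentation genes lay further from the light level in replicate 2 than gliosis genes did. This list of 31 genes had a median of 0.21, 0.94 and 0.05 in TAM replicates 1, 2 and 3, against 2.49 to 2.80 in light and -0.16 to 0.20 in no light. On the scale from no light to light, the 28 members that light raised at least 2-fold in the mixture experiment had a median position of 29.7% in replicate 2, and 5 of 28 (17.9%) were over 50%. The corresponding median was 84.2% for 13 gp130 and JAK-STAT genes, 78.1% for 16 gliosis genes and 81.4% for 15 AP-1 and immediate early genes. Of these, 12, 16 and 15 were over 50%. Over all 655 light-responsive genes, 436 (66.6%) were over 50%. These medians are descriptions of 1 library. In replicates 1 and 3 the interferon medians were 7.03% and 1.06%.

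Oasl2, an antiviral protein, had 4.57, 7.59 and 5.96 CPM in TAM, against 3.93, 3.25 and 4.79 CPM in no light, while light libraries had 27.7 to 32.3 CPM. Irgm1, an interferon-induced GTPase of cell-autonomous defence, had 3.89, 9.16 and 3.76 CPM in TAM and 3.37, 2.65 and 2.84 CPM in no light, with 32.7 to 38.9 CPM in light libraries. All TAM libraries exceeded all no-light libraries in Irgm1, which holds for 3 of the 31 members (9.68%) and for 4.66% of all genes. Parp14, a poly-ADP-ribose polymerase family member, had 3.73, 6.91 and 2.82 CPM in TAM and 2.32, 3.58 and 2.69 CPM in no light, with 24.2 to 29.8 CPM in light libraries. Psmb9, a subunit of the immunoproteasome, had 0.593, 0.209 and 0.565 CPM in TAM and 0.453, 0.465 and 0.685 CPM in no light, while the light libraries had 2.34 to 3.19 CPM. Replicate 2 had the lowest level of the 6, but all 6 rest on few counts, so their order is uncertain. The members nearest to light in replicate 2 were regulators: Irf9, a subunit of the factor that answers type I interferon, had 13.5, 60.0 and 11.8 CPM in TAM and 12.9, 10.8 and 10.7 CPM in no light, with 78.2 to 85.0 CPM in light libraries. Nlrc5, which switches on genes of MHC class I, had 0.339, 4.45 and 0.565 CPM in TAM and 0.302, 0.186 and 0.263 CPM in no light. The group comparison with light, which shares the TAM libraries, called 29 of the 31 members lower in TAM and 0 higher, against 7 of 22 gliosis genes lower. Those called lower in that comparison make up 4.00% of all genes. The median log2 difference of TAM from light was -2.10 over the interferon list and -1.67 over the gliosis list. The counts depend on the spread between TAM libraries as well as on these differences, so they do not measure distance from light.

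**Figure D3:**
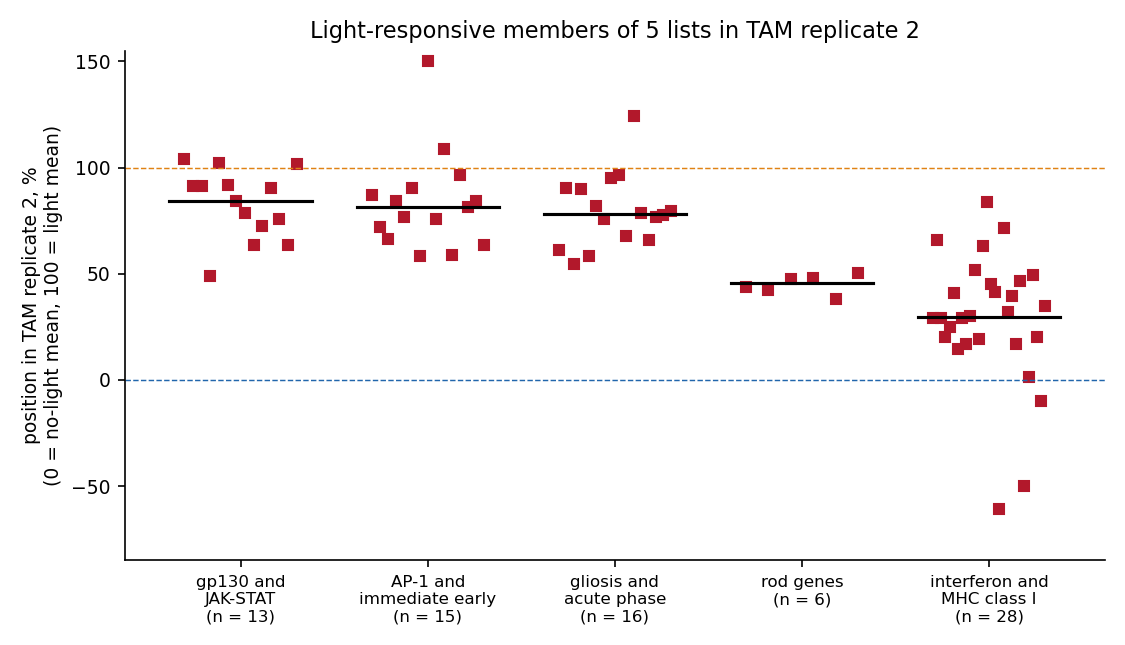
Position of single genes in TAM replicate 2 between the no-light mean (0%) and the light mean (100%), for members of 5 lists that light changed at least 2-fold in the mixture experiment; each square is 1 gene, the horizontal bar is the list median, and 1 value above 150% is drawn at the upper edge. The interferon and MHC class I median is 29.7%. The medians of the lists for gp130 and JAK-STAT, AP-1, and gliosis are 84.2%, 81.4% and 78.1%.

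The promoters of Gfap, Socs3 and Irgm1 are shown because replicate 2 reached or neared the light level in Gfap and Socs3 and stayed far from it in Irgm1. The sequences run 5′ to 3′ from 250 bases before to 50 bases after the RefSeq start of each gene (GRCm38.p6, all on the minus strand of chromosome 11), at chr11:102897151-102897450 for Gfap, chr11:117969317-117969616 for Socs3 and chr11:48871371-48871670 for Irgm1. Capitals mark matches to TTCNNNGAA, the letters that Stat dimers are known to bind, or to GAAA, any 2 bases and GAAA, the interferon-stimulated response element, searched on both strands.
Gfap: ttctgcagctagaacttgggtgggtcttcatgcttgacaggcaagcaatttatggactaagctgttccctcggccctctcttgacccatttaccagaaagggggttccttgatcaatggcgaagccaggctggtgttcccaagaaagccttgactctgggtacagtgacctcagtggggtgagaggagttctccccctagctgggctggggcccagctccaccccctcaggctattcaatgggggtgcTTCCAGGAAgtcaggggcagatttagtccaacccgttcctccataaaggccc
Socs3: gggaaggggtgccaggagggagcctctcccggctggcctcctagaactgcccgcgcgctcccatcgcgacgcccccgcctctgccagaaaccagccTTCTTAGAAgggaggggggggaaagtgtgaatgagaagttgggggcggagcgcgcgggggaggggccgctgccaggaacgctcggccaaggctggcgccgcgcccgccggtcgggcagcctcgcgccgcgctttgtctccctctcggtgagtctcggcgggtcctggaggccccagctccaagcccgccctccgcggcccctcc
Irgm1: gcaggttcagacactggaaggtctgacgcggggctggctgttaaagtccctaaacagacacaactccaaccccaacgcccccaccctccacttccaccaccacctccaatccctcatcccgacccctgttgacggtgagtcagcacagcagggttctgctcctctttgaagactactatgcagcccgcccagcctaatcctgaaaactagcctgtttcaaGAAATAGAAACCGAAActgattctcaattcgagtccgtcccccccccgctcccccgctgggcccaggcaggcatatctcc
Gfap and Socs3 each hold 1 match to the Stat letters and 0 to the interferon letters. Irgm1 holds 2 matches to the interferon letters, which overlap each other, and 0 to the Stat letters. Of 27025 RefSeq promoters of this length, 8.47% hold the Stat letters and 3.49% the interferon letters. The Stat letters were found in 3 of the 19 gliosis genes with a matched promoter and in 2 of 20 gp130 and JAK-STAT genes. They were also found in 8 of 25 interferon genes. The interferon letters were found in 0, 2 and 12 of these. A match of letters does not show that a factor binds there.

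AP-1 and immediate early genes, which encode transcription factors made soon after a stimulus, had a list median (29 genes) of -0.14, 0.79 and -0.15 in TAM replicates 1, 2 and 3, against 1.30 to 1.58 in light and -0.06 to 0.05 in no light. In replicate 2 alone 8 were called higher (27.6%, against 1.24% of all genes). Atf3, a stress-induced factor, had 3.30, 29.5 and 5.27 CPM in TAM and 4.58, 4.00 and 3.85 CPM in no light. Fos, a subunit of AP-1, had 5.59, 26.7 and 6.46 CPM in TAM and 6.64, 8.22 and 8.59 CPM in no light. Egr1, a zinc finger factor, had 6.52, 34.7 and 6.40 CPM in TAM and 6.14, 5.62 and 11.5 CPM in no light. Replicates 1 and 3 lay below every no-light library in Fos and inside their range in Egr1. Junb, another AP-1 subunit, had 1.02, 18.2 and 2.07 CPM in TAM and 3.42, 3.81 and 2.95 CPM in no light, with replicates 1 and 3 again lowest. Klf10, a repressor of the same early wave, was higher in every TAM library, at 8.04, 11.3 and 7.15 CPM against 5.84, 6.09 and 6.37 CPM in no light (log2 difference 0.54 ± 0.18, adjusted p = 0.586, edgeR). That held for 2 of the 29 genes (6.9%), against 4.66% of all genes.

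Among chemokines, Ccl12, which draws monocytes in mice, had 0.762, 6.81 and 0.376 CPM in TAM, against 0.151, 0.139 and 0.105 CPM in no light. All TAM libraries were above all no-light libraries, and replicate 2 was above the light libraries too, which had 4.43 to 5.62 CPM. Such a separation from no light was seen in 2 of the 13 chemokine and adhesion genes measured (15.4%) and in 4.66% of all genes. DESeq2 called Ccl12 higher (log2 difference 4.36 ± 0.88, adjusted p = 0.0025) and edgeR did not (4.29 ± 0.91, adjusted p = 0.586). Ccl2, another monocyte attractant, had 0.254, 1.62 and 0.188 CPM in TAM and 0.00, 0.232 and 0.00 CPM in no light, with 3.35 to 4.68 CPM in light libraries. Of the 13 chemokine and adhesion genes measured, 2 were called higher in replicate 2 alone (15.4%, against 1.24% of all genes).

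The median over the 19 microglial genes measured was -0.02, 0.11 and -0.04 in TAM replicates 1, 2 and 3. Light libraries lay at 0.30 to 0.49 and no-light libraries at -0.08 to 0.07. P2ry12, the receptor by which resting microglia sense nucleotides, had 2.62, 0.995 and 2.07 CPM in TAM, against 3.27, 3.30 and 3.69 CPM in no light, and 0.613 to 0.979 CPM in light libraries. Every TAM library was below every no-light library in P2ry12 (log2 difference -0.87 ± 0.33, adjusted p = 0.586, edgeR). That held for 1 of the 19 genes (5.26%), against 6.49% of all genes. In 1 other gene of the list (5.26%, against 4.66% of all genes) every TAM library was above every no-light library. Cx3cr1, a microglial chemokine receptor, had 3.73, 4.61 and 4.64 CPM in TAM and 3.37, 3.72 and 4.32 CPM in no light, with overlapping groups. The median over the 13 complement genes measured was 0.15, 0.55 and 0.04 in TAM replicates 1, 2 and 3. Light libraries lay at 0.74 to 0.99 and no-light libraries at -0.24 to 0.53. For the 6 complement genes that light raised at least 2-fold in the mixture experiment, the median position was 46.1%, 50.6% and 3.08% in TAM. Serping1, the C1 inhibitor, had 15.0, 11.7 and 3.32 CPM in TAM and 9.87, 2.46 and 3.16 CPM in no light, so its high values were in TAM replicate 2 and in the TAM and no-light libraries with lens transcripts.

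Rod genes lay below the no-light range in 2 of the 3 TAM libraries, by the median of the list. This median over 38 rod genes was -0.25, -0.54 and 0.07 in TAM replicates 1, 2 and 3, against -1.12 to -1.49 in light libraries and -0.06 to 0.07 in no light. In bulk retina, fewer rods and less RNA per rod cannot be told apart. Gnat1, the rod transducin subunit, had 12173, 10773 and 16781 CPM in TAM and 16602, 16077 and 17453 CPM in no light. Esrrb, a nuclear receptor of rods, was lower in every TAM library, at 468, 414 and 572 CPM against 687, 634 and 622 CPM in no light (log2 difference -0.42 ± 0.14, adjusted p = 0.586, edgeR). All TAM libraries were below all no-light libraries in 6 of the 38 rod genes (15.8%), against 6.49% of all genes, among them Reep6, Fscn2 and Tulp1. Against light, 35 of the 38 were called higher in TAM, as were 6.60% of all genes. The 6 rod genes lowered at least 2-fold by light in the mixture experiment had a median position of 45.4% in replicate 2, and 12.2% and -7.92% in replicates 1 and 3. Impg2, a member of the list that encodes a proteoglycan of the matrix around photoreceptors, was higher in replicate 2. It had 693, 1543 and 842 CPM in TAM, against 805, 1020 and 823 CPM in no light. Light libraries had 1291 to 1769 CPM, so replicate 2 lay at the light level in Impg2. The mixture experiment did not call this gene for light.

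Cone genes showed the same order of libraries, with a median over 13 genes of -0.20, -0.31 and 0.08 in TAM replicates 1, 2 and 3, against -0.66 to -1.01 in light and -0.06 to 0.06 in no light. Opn1sw, the short-wavelength cone pigment, had 582, 356 and 599 CPM in TAM, against 659, 740 and 738 CPM in no light and 128 to 210 CPM in light libraries. All TAM libraries were below all no-light libraries in Opn1sw (log2 difference -0.48 ± 0.24, adjusted p = 0.622, edgeR). No other cone gene showed this, so it held for 1 of 13 (7.69%), near the 6.49% of all genes. Opn1mw, the medium-wavelength pigment, had 120, 110 and 164 CPM in TAM and 157, 141 and 161 CPM in no light, with overlapping groups.

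**Figure D4:**
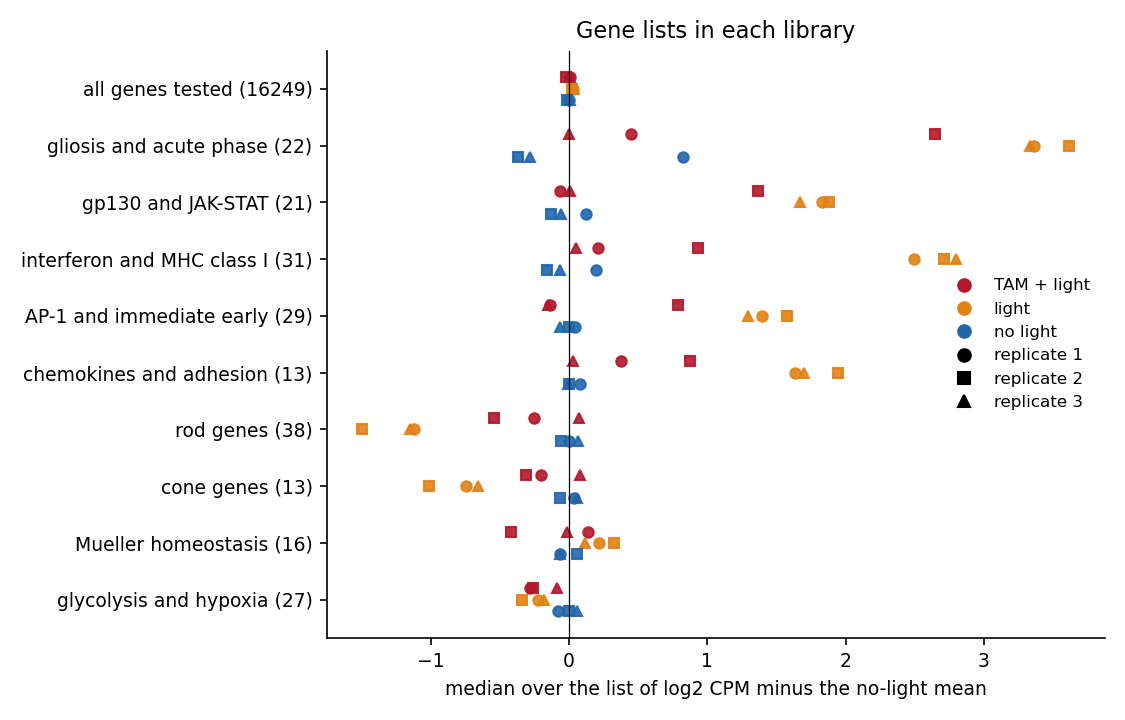
Median over each gene list of log2 CPM minus the no-light mean (horizontal axis), for TAM, light and no-light libraries; each point is 1 library, its shape gives the replicate number, and the number of genes measured stands beside each list. TAM replicate 2 lies at 2.65 for gliosis and 0.94 for interferon genes, against light libraries at 3.33 to 3.62 and 2.49 to 2.80.

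The Müller homeostasis list (16 genes) had a median of 0.13, -0.42 and -0.01 in TAM replicates 1, 2 and 3. Light libraries lay at 0.11 to 0.32 and no-light libraries at -0.07 to 0.06, so replicate 2 was below both. Glul, glutamine synthetase of Müller glia, was lower in replicate 2 than in the other TAM libraries. It had 1353, 469 and 1333 CPM in TAM, against 1182, 1467 and 1449 CPM in no light and 394 to 425 CPM in light libraries. Replicates 1 and 3 lay inside the no-light range, and replicate 2 alone was called lower (log2 difference -1.54 ± 0.17, adjusted p = 0.00034, edgeR). No other gene of the 16 on the Müller homeostasis list was called in replicate 2. Aqp4, the water channel, had 116, 69.6 and 70.5 CPM in TAM and 85.9, 101 and 100 CPM in no light, and Slc1a3, the glial glutamate transporter, had 121, 135 and 105 CPM in TAM and 86.1, 110 and 107 CPM in no light. The groups overlapped in both genes.

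Other genes also set replicate 2 apart from the other TAM libraries, some of them short of the light level. Crym, a thyroid hormone binding protein, had 28.3, 154 and 31.4 CPM in TAM and 25.2, 31.8 and 30.4 CPM in no light, and light libraries had 265 to 359 CPM. Myo10, a filopodial myosin, had 40.5, 222 and 42.3 CPM in TAM and 49.3, 41.1 and 41.1 CPM in no light, where light libraries had 213 to 217 CPM. Nes, the filament nestin, had 3.98, 27.3 and 2.82 CPM in TAM and 4.98, 2.93 and 4.16 CPM in no light, and replicate 2 exceeded the light libraries, at 15.2 to 20.8 CPM. Among genes lower in replicate 2, Tnfaip3, an inhibitor of NF-kappaB signalling, had 359, 234 and 448 CPM in TAM, against 415, 415 and 431 CPM in no light and 115 to 142 CPM in light libraries. The genes lowest in replicate 2 relative to the other TAM libraries at a mean log2 CPM of at least 3 included lens genes such as Mip, the lens-fibre water channel, which had its high values in replicate 1 of both groups, at 933 CPM in TAM and 640 CPM in no light.

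Other genes were lower in all 3 TAM libraries, replicates 1 and 3 included, and several of them serve glycolysis. Slc16a3, a lactate exporter, had 21.8, 22.4 and 28.0 CPM in TAM, against 47.4, 48.4 and 46.5 CPM in no light, a log2 difference of -0.98 ± 0.18. It missed the adjusted threshold in edgeR (adjusted p = 0.412) and passed it in DESeq2 (-0.97 ± 0.18, adjusted p = 0.00044). Without TAM replicate 2 the difference was -0.93 ± 0.20 (adjusted p = 0.852, edgeR), and light libraries had 16.2 to 23.9 CPM. Hk2, the hexokinase of photoreceptors, had 419, 424 and 569 CPM in TAM and 684, 661 and 716 CPM in no light (log2 difference -0.55 ± 0.15, adjusted p = 0.586, edgeR). Light libraries were lower still in Hk2, at 244 to 308 CPM. Pfkl, a phosphofructokinase subunit, had 138, 170 and 218 CPM in TAM and 236, 282 and 268 CPM in no light. Pkm, pyruvate kinase, had 2055, 2061 and 2818 CPM in TAM and 2888, 3031 and 3197 CPM in no light. In all of these replicate 3 lay closest to no light, yet still below each no-light library.

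Of the 27 glycolysis and hypoxia genes, 11 had an unadjusted p under 0.05 and were lower (40.7%), and 0 were higher at that level, while 696 of 16249 genes (4.28%) were lower at that level. In 8 glycolysis genes (29.6%) all TAM libraries were below all no-light libraries, against 6.49% of all genes. None of the 27 was called by edgeR, either in all TAM libraries or in any TAM library alone. The list median was -0.28, -0.26 and -0.09 in TAM replicates 1, 2 and 3, against -0.18 to -0.34 in light and -0.08 to 0.06 in no light. The groups overlapped in Vegfa, the vascular growth factor and a hypoxia target, with 60.4, 67.5 and 69.6 CPM in TAM and 65.7, 69.6 and 78.7 CPM in no light. They did not overlap in Egln1, an oxygen-sensing prolyl hydroxylase that is not on the list, which had 91.4, 82.3 and 91.8 CPM in TAM and 113, 109 and 107 CPM in no light (log2 difference -0.31 ± 0.06, adjusted p = 0.412, edgeR). Light libraries were lower still in Egln1, at 76.3 to 78.0 CPM.

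**Figure D5:**
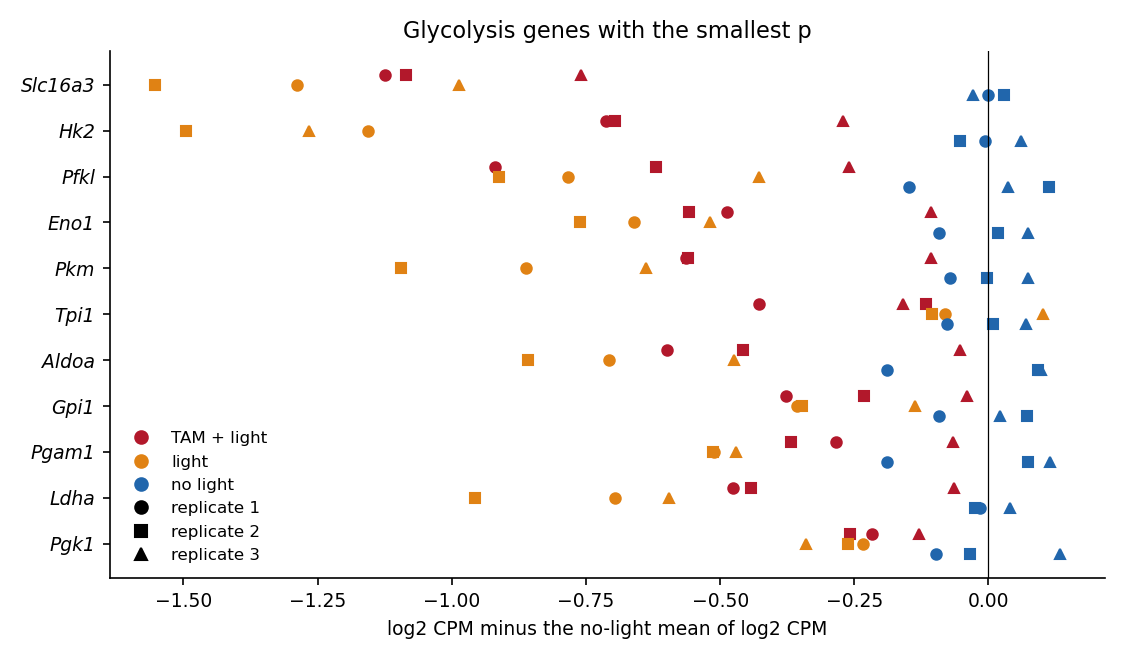
Log2 CPM minus the no-light mean (horizontal axis) for the 11 glycolysis genes with the smallest p in TAM against no light; each point is 1 library of TAM, light or no light, and its shape gives the replicate number. In Slc16a3 and Hk2 all TAM libraries lie to the left of all no-light libraries, with TAM replicate 3 nearest to them.

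Receptors that the drugs of the series act on were measured at low to moderate levels. Among the alpha-1 adrenergic receptors, the targets of tamsulosin, Adra1a had 0.169, 0.628 and 0.815 CPM in TAM, against 2.42, 0.976 and 0.632 CPM in no light (log2 difference -1.26 ± 0.51, adjusted p = 0.586, edgeR), with overlapping groups at few counts and the highest value in the no-light library that carries lens and pigment-cell transcripts. Adra1b had 1.27, 1.83 and 1.44 CPM in TAM and 1.06, 1.77 and 2.32 CPM in no light, and Adra1d had 0.931, 2.04 and 1.32 CPM in TAM and 1.36, 1.81 and 1.53 CPM in no light, so neither was apart in replicate 2. Drd4, the dopamine receptor of photoreceptors, had 34.5, 39.3 and 57.0 CPM in TAM, against 77.8, 84.9 and 56.2 CPM in no light and 17.4 to 33.5 CPM in light libraries. Its groups overlapped by 1 library of each (log2 difference -0.74 ± 0.32, adjusted p = 0.586, edgeR). Adrb1, a beta-adrenergic receptor, was lower in every TAM library, at 11.3, 13.6 and 14.5 CPM against 17.4, 15.5 and 17.2 CPM in no light (log2 difference -0.34 ± 0.15, adjusted p = 0.593, edgeR). That held for 1 of the 14 adrenergic and dopamine receptor genes measured (7.14%), near the 6.49% of all genes. The median over the 18 genes of Gq and phospholipase C signalling measured was 0.11, 0.16 and 0.02 in TAM replicates 1, 2 and 3. Light libraries lay at 0.15 to 0.29 and no-light libraries at -0.06 to 0.05. Drd2, another dopamine receptor, had 9.31, 8.64 and 7.59 CPM in TAM and 8.66, 12.0 and 11.5 CPM in no light. Xist, the RNA of the inactive X chromosome, had 2258, 1687 and 1548 CPM in TAM and 1499, 1672 and 1761 CPM in no light, and the groups overlapped.

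Further genes had no overlap between TAM and no-light libraries without passing the adjusted threshold in edgeR. Arhgap1, a GTPase activating protein, had 51.3, 55.4 and 49.4 CPM in TAM and 38.6, 42.1 and 37.1 CPM in no light (log2 difference 0.41 ± 0.08, adjusted p = 0.506, edgeR). C1qbp, a mitochondrial matrix protein, had 39.1, 39.6 and 38.1 CPM in TAM and 29.0, 28.8 and 29.7 CPM in no light (log2 difference 0.42 ± 0.09, adjusted p = 0.586, edgeR). DESeq2 called both higher. In each of them the TAM libraries also lay close together, and the light libraries were as high or higher, at 56.1 to 59.7 CPM for Arhgap1 and 40.2 to 48.5 CPM for C1qbp. Rorb, a nuclear receptor of photoreceptor development, had 331, 266 and 346 CPM in TAM and 447, 413 and 441 CPM in no light (log2 difference -0.46 ± 0.12, adjusted p = 0.586, edgeR), with 180 to 218 CPM in light libraries. Bst1, an ectoenzyme that makes cyclic ADP-ribose, stood at 19.2, 23.0 and 24.7 CPM in TAM, against 13.2, 16.3 and 14.5 CPM in no light, while the light libraries had 14.0 to 17.2 CPM. The comparison of TAM with light shares the TAM libraries, and there Bst1 was called higher in TAM (log2 difference 0.54, adjusted p = 0.019, edgeR). Arhgap1, C1qbp, Egln1 and Bst1 were named after their values were seen.

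Over all genes, 757 (4.66%) were above and 1055 (6.49%) below every no-light library in every TAM library. For the 554 genes raised by light in the mixture experiment the share above was 8.12% (45 genes), and for the 101 lowered genes the share below was 8.91% (9 genes). Replicates 1 and 3 were both above the no-light libraries in 47 of the raised genes (8.48%) and both below in 9 of the lowered genes (8.91%), against 9.08% and 10.0% of all genes. Taken singly, replicates 1 and 3 were above them in 29.78% and 23.47% of the raised genes, against 28.85% and 23.31% of all genes. Replicate 2 was above the no-light libraries in 441 of the 554 raised genes (79.6%), against 26.6% of all genes, and reached the lowest light library in 146 (26.4%). In the lowered genes, replicates 1, 2 and 3 were below the no-light libraries in 44.55%, 86.14% and 21.78%. The shares of all genes were 31.21%, 32.4% and 21.09%, so replicate 1 exceeded its share there. The median log2 difference of TAM from no light over the raised genes was 0.47, and 0.07 without TAM replicate 2, where light differed from no light by 1.53. Over the lowered genes it was -0.22, and -0.01 without TAM replicate 2, where light differed by -1.45.

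Against the light group, TAM differed in 1072 genes called higher and 650 called lower (6.60% and 4.00% of 16249, edgeR). The number called depended on which TAM library was left out: 2446 without replicate 2, 1276 without replicate 1 and 597 without replicate 3. Doxazosin (DOX), a second alpha-1 blocker given on the same schedule, had positions of 29.6% to 44.0%, between those of TAM replicates 1 and 3 and that of replicate 2. Gfap in DOX had 171, 217 and 167 CPM, against the TAM values of 25.0, 258 and 39.0 CPM given above. edgeR called 0 genes between TAM and DOX, with 2519 at an unadjusted p under 0.05, limma voom called 0 and DESeq2 called 130. Without TAM replicate 2, edgeR called 48. No dose of either drug is stated in the labels used here.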

How the data were processed

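Stranded poly(A) RNA was sequenced from neural retina, per the labels' protocols. Per the submitters' processing notes, Trimmomatic, Bowtie2, TopHat2, eXpress, edgeR and limma were used with GRCm38.p3, with no versions stated. The authors' deposited tables hold expected counts (eXpress effective counts, fractional, not normalized) for 102906 transcripts. The authors' deposited FPKM values of the single-drug experiment are TMM-scaled and cover 18483 transcripts. The other deposited tables were not used here.

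Expected counts were summed over 42439 gene identifiers and rounded. Genes passed filterByExpr, libraries were scaled by TMM, and the 18 single-drug libraries (12.0 to 22.2 M counts) were fitted in 6 groups with the two-sided quasi-likelihood F test of edgeR 4.0.16 (R 4.3.3), Benjamini-Hochberg adjustment over all genes and a threshold of 0.05. Fold changes are TAM minus no light on the log2 scale. CPM are TMM-scaled, and log2 CPM used a prior count of 1. Alternatives were DESeq2 1.42.0, limma 3.58.1 with voom, other scaling and filters, libraries left out, each TAM library alone, and FPKM with a pseudocount of 1. Depth limits genes of few counts, mostly in TAM replicate 1, at 12.0 M counts.

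Light-responsive genes were those called and changed at least 2-fold in a separate fit of the mixture experiment, 559 raised and 101 lowered, of which 554 and 101 were measured here. Promoters came from RefSeq (GRCm38.p6), 1 per gene matched by symbol.

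The groups, the gene lists and the tests were chosen with earlier results of these data known. Genes were named by rule: per list the 4 or 2 members with the smallest p at a mean log2 CPM of at least 1, the genes in which TAM replicate 2 differed most from the other TAM libraries, and a fixed set of retinal genes and receptors. Some genes are not reported here. Vim, C3, Lif, Socs3, Nlrc5, Psmb9, Fos, Junb, Ccl12, Gnat1, Impg2, Aqp4, Pfkl, Pkm, Vegfa, Nes and Tnfaip3 were added after their values were seen, as were the called genes.

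The labels give replicate numbers without saying what they share. Deviations from group means correlated between TAM and no-light libraries of the same number at 0.391, 0.175 and 0.134 across genes, and between different numbers at -0.262 to 0.135. By the rule that every same-number correlation exceeds 0.1, the numbers were treated as pairing the libraries in the blocked fit. That rule is weak, since 0.134 for replicate 3 was no higher than 0.135 for TAM replicate 2 with no-light replicate 3. Only the replicate 1 libraries stood clearly apart, and both carried lens transcripts. Whether the numbers mark a shared origin was not tested.

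On simulated counts with 200 changed genes, the TAM against no-light fit recovered 72.5% of 2-fold changes with 3.1% false calls in edgeR, and 79.7% with 20.6% false calls in DESeq2. Each change was put alike into all TAM libraries, and changed genes were drawn only from those above a minimum count. These rates therefore do not apply to a response present in only some of the TAM libraries, or to genes of few counts. With 1 TAM library alone edgeR recovered 52.2% of 2-fold changes and 1.47% of the smallest ones, with 3.33% false calls.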

Additional observations from a re-analysis of the deposited data

How the results depend on the processing

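For TAM against no light, edgeR called 0 genes and so did RLE scaling, no filter on low counts, limma voom, only the groups compared, a lens-fibre covariate and only libraries of low lens score. DESeq2 called 7 (3 higher: C1qbp, Arhgap1 and Ccl12; 4 lower: Slc16a3, Egln1, Tmem254c and AC107830.1), and FPKM per transcript called 1, lower (Ndufc1). TAM replicate 1 alone gave 1 lower gene, replicate 2 alone 252 (213 higher, 39 lower) and replicate 3 alone 2 lower genes. Leaving out 1 library at a time gave 0 to 1 genes called, 0 higher and 0 to 1 lower. For the libraries alone, limma voom called 0 genes in replicate 1 and 0 in replicate 3, and DESeq2 called 116, 658 and 5 genes in replicates 1, 2 and 3. Without 1 no-light library at a time, replicate 1 had 0 to 1 calls, replicate 2 186 to 263 and replicate 3 2. TAM against light had 298 calls with only the groups compared and 597 to 2446 with 1 library left out, the lowest without TAM replicate 3. Without light replicate 2 it had 840. TAM against DOX had 130 calls by DESeq2, 3 by FPKM and 0 to 48 with 1 library left out, the highest without TAM replicate 2. The cause of these differences was not tested. With replicate number as a block, treated as a pairing, TAM against no light had 0 calls (1174 at an unadjusted p under 0.05). TAM against light had 1591 and TAM against DOX 0, and no other call changed. With 1 light or no-light library left out, the position of TAM replicate 2 ranged from 61.4% to 66.0%. That of replicate 1 ranged from 2.32% to 7.19% and that of replicate 3 from -0.57% to 4.44%. With no fold threshold on the light genes, TAM replicate 1 lay at 8.29%, above the no-light maximum of 6.95%. No result reversed. Among the genes chosen by the naming rule, which leaves out those added after their values were seen, 19 passed the threshold with replicate 2 alone and 1 each in DESeq2, replicate 1 alone and replicate 3 alone. At 12.0 M counts, TAM replicate 1 limits what can be said of genes with few reads.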
